A study of Mus musculus with 6 samples.

Results

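The genes Pigr, Jchain, Fcgrt, Ccr10, Tnfrsf17 and Mzb1, which serve the transfer of antibody into milk and the plasma cells that make it, were followed through the mammary cycle of the mouse. All probe sets that the probe-to-gene table assigns to 1 of these symbols alone were taken. That gave 7 probe sets for 6 genes, 2 for Pigr and 1 for each of the others, among 34945 probe sets with a single symbol that cover 18193 genes.

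RNA of whole mammary glands from 6 female mice was hybridised to Affymetrix 3′ expression arrays, 1 mouse per array, as part of a search for genes regulated by Brca1, the breast and ovarian cancer susceptibility gene. The mice form a Brca1 mutant and control pair at each of 3 stages, so a stage has 2 arrays of different genotype and each group has 1 mouse. The virgin pair was 6 months old, the pregnant pair was at day 16.5 of pregnancy and 5 months old, and the lactating pair was at day 1 of lactation and 2 months old. Stage therefore cannot be told apart from age, and the date in the array titles of the lactating pair was earlier than that of the other 4 arrays. The virgin and the lactating mutant are labelled Brca1 D11/D11;p53+/-, and their controls Brca1 D+/+;p53+/-, so these 4 mice all carry the p53+/- genotype. The pregnant mutant is labelled Brca1 co/co/MMTV-Cre and the pregnant control Brca1 +/co/MMTV-Cre, with no p53 allele listed. A difference between the pregnant pair and either other stage therefore cannot be told apart from these differences in the Brca1, Cre and p53 labels. In that pair Cre is driven by the MMTV promoter, which is active in mammary epithelium but also in other tissues. The design text gives the germline genotype for all mutants, and this difference from the sample labels was not resolved here. All mice were of a mixed 129/FVB/Black Swiss background.

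Milk antibodies are made outside the epithelium and carried through it. Plasma cells lodge beside the alveoli and release IgA whose units are held together by the J chain (Jchain), and the polymeric immunoglobulin receptor (Pigr) on the basal side of the epithelial cell binds these polymers, crosses the cell and is shed into milk with them. The neonatal Fc receptor (Fcgrt), which pairs with beta-2-microglobulin (B2m), binds IgG inside cells and protects or transports it. CCR10 guides IgA plasma cells to epithelium that releases its ligand CCL28, BCMA (Tnfrsf17) is a survival receptor of plasma cells, and MZB1 is a cofactor of the endoplasmic reticulum that helps B and plasma cells to assemble and secrete antibody.

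Pigr was far higher, and Jchain and Fcgrt lower, in lactating than in virgin glands. Pigr rose 11.3-fold from virgin to pregnant and lay 27.0-fold above virgin in lactation, whereas Jchain lay 6.91-fold and Fcgrt 3.86-fold below virgin in lactation. Mzb1 was 2.08-fold lower in the pregnant than in the virgin pair, a call that ended when any 1 of the 4 arrays compared was left out. Ccr10 and Tnfrsf17 gave dim signals, and 0 of the 4 genes tested passed between mutant and control. These folds are on the log2(signal + 52.1) scale, which understates changes of dim genes, and each was tested with limma over 11341 genes at a Benjamini-Hochberg adjusted p of 0.05, with 2 arrays per stage.

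Pigr, Jchain, Fcgrt and Mzb1, 4 of the 6 genes, passed the filter on mean level. Each of the 4 had signals above the filter's level of 158 in all 6 arrays, so none passed through 1 stage alone. In pregnant against virgin, 3 of the 4 were called, Pigr higher and Fcgrt and Mzb1 lower, where 14.7% of all tested genes were called, 6.61% higher and 8.09% lower. Lactating against pregnant also gave 3 of 4, with Pigr higher and Jchain and Fcgrt lower, against 31.9% of all tested genes, 14.9% higher and 17.0% lower. Pigr, Jchain and Fcgrt were called again in lactating against virgin, where 52.0% of all tested genes passed, 23.8% higher and 28.2% lower. Against that last background a count of 3 in 4 says little. The 3 comparisons share arrays and are not independent of each other.

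**Figure D1:**
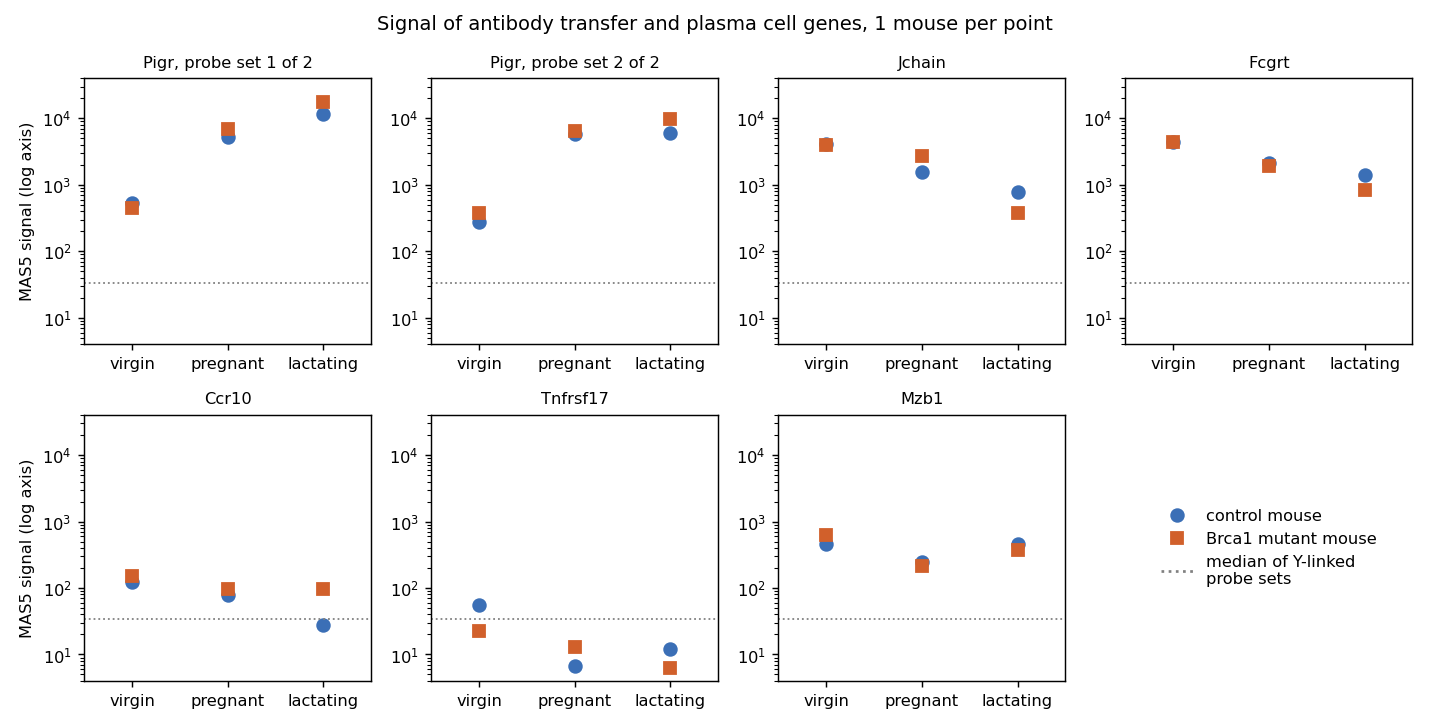
Deposited MAS5 signal (log axis) of each probe set of the 6 genes in each of the 6 arrays, grouped by stage, with controls and mutants marked separately and a dotted line at 33.6, the median of Y-linked probe sets. Pigr lies lowest in the virgin arrays, Jchain and Fcgrt lowest in the lactating arrays, and Ccr10 and Tnfrsf17 under the filter level of 158 throughout.

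The 250 bases before the transcription start of Pigr, Jchain and Fcgrt are given because these 3 genes, of the 4 that passed the filter, had the largest log2 ratios between stages. They are from the RefSeq promoter table of GRCm38.p6, matched by symbol, and are written 5′ to 3′ on the gene's strand. Capitals mark matches to any of 6 patterns searched on both strands.
Pigr, chr1:130826434-130826683, plus strand: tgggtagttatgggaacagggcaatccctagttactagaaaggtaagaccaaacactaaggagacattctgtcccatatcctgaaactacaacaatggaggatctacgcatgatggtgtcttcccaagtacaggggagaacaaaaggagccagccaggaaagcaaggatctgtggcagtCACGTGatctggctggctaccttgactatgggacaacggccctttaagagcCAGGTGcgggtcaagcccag
Jchain, chr5:88527898-88528147, minus strand: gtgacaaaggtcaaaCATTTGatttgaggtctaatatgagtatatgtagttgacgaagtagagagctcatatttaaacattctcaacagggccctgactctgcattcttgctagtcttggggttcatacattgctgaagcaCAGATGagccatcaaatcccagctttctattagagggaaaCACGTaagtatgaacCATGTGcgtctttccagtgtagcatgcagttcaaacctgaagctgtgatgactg
Fcgrt, chr7:45103823-45104072, minus strand: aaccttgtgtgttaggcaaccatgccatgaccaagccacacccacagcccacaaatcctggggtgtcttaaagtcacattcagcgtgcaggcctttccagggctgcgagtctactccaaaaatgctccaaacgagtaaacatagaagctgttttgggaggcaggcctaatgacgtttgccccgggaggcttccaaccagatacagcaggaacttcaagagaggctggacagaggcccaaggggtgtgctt
The patterns were the STAT element TTCNNNGAA, the octamer ATGCAAAT, the interferon response element, the E-box CANNTG, the ETS core GAGGAA and the core ACGTG of unfolded protein response elements. Pigr held 2 E-boxes, CACGTG at 71 to 66 bases and CAGGTG at 20 to 15 bases before the start, and the first of these also holds the ACGTG core on both strands. Jchain held 3 E-boxes, at 235 to 230, 109 to 104 and 54 to 49 bases before the start, and 1 ACGTG core on the reverse strand at 69 to 65 bases, apart from the E-boxes. The Fcgrt window held 0 matches. Over 32851 promoter windows of the same length, 66.2% held an E-box, 16.6% the ACGTG core, 23.3% the ETS core, 7.02% the STAT element, 2.98% the interferon element and 1.60% the octamer. These matches are of letters only and are a description.

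Signals are given below for the control first and then the mutant of each pair. Pigr, the carrier of polymeric IgA and IgM, was measured by 2 probe sets. Probe set 1455490_at had signals of 525 and 452 at the virgin stage, 5257 and 6950 during pregnancy, and 11664 and 17968 during lactation. The 3 stages did not overlap, and the lactating arrays were the highest. With 2 arrays per stage, a lack of overlap between 2 stages is common. Both arrays of the later stage lay above both of the earlier in 27.9% of all tested genes for pregnant against virgin. The share was 33.4% for lactating against pregnant and 35.3% for lactating against virgin. Both lay below in 36.5%, 36.5% and 41.6%. Those shares hold for each comparison by itself and are the background for each statement of overlap that follows. The share of genes without overlap among all 3 stages was not counted. The stage means were 488 ± 51.5, 6103 ± 1197 and 14816 ± 4458 in virgin, pregnant and lactating glands (SD, n = 2, the 2 genotypes). Within an array, Pigr moved from the 72.0 to 75.5 percentile of all probe sets at the virgin stage to the 97.2 to 98.1 percentile in pregnancy and the 99.1 to 99.4 percentile in lactation. In limma, the log2 ratio of pregnant to virgin was 3.50 ± 0.23 (SE; adjusted p = 0.000911), the 25th highest of 11341 genes. Lactating against virgin gave 4.75 ± 0.23 (adjusted p = 5.99e-05), the 13th highest. Both calls held in every alternative run, at 3.15 to 3.85 and 4.16 to 5.11. In whole glands, more cells of a type and more RNA per cell cannot be told apart, nor can fewer cells and less RNA per cell.

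From pregnancy to lactation the 2 probe sets of Pigr gave different results. Probe set 1455490_at had a log2 ratio of 1.25 ± 0.23 (adjusted p = 0.00956 in limma). The second, 1450060_at, had signals of 274 and 373 at the virgin stage, 5918 and 6406 during pregnancy, and 6119 and 9670 during lactation. Its lactating control thus lay between the 2 pregnant arrays, and with each probe set fitted by itself it gave 0.32 ± 0.21 (limma adjusted p = 0.273). The mean of both probe sets moved the value from 1.25 to 0.79, and the call on the first ended without the pregnant control (adjusted p = 0.0554). For the rise from virgin, the second gave 4.06 ± 0.21 to pregnancy (adjusted p = 0.000171) and 4.38 ± 0.21 to lactation (adjusted p = 4.14e-05), both called as for the first. The 16 luminal and milk epithelial markers, all tested, had a median log2 ratio of 0.47 from virgin to pregnant and 0.54 from virgin to lactating. Over all tested genes the medians were -0.06 and -0.10. Of the 16, 5 and 6 were called higher and 0 and 1 (Ehf) called lower. Among all tested genes, 6.61% and 23.8% were called higher and 8.09% and 28.2% lower. The milk protein genes Wap, Csn3 and Csn2 had log2 ratios of 5.87, 1.09 and 0.15 from virgin to pregnant. Csn2 was not called (limma adjusted p = 0.724). Its signals were already 30621 and 40000 in the virgin arrays, and 44423 and 33860 in the pregnant ones. Whether signals this high still follow the amount of RNA was not tested. Lalba, Muc1 and Elf5 of the list were also called higher from virgin to pregnant. The epithelial structural genes Krt8, Krt18, Epcam and Cdh1 had -0.04, -0.45, 0.03 and 0.36. Krt19, Cldn3, Cldn4 and Krt7 had 0.79, 1.25, 0.57 and -1.32. None of these structural genes passed (adjusted p = 0.0645 to 0.957). All of these genes were named after their values were seen. The summed signal of the 16 markers was 104407 to 125588 in virgin, 172176 to 236504 in pregnant and 246911 to 303913 in lactating arrays, most of it from milk protein genes in pregnancy and lactation. The part of epithelial content in the rise of Pigr was not tested.

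Fcgrt, the IgG receptor, fell at each step. Its signals were 4362 and 4351 at the virgin stage, 2106 and 1955 during pregnancy, and 1427 and 832 during lactation. The 3 stages did not overlap, and the virgin arrays were nearly equal. Taken singly, the 3 comparisons had 36.5%, 36.5% and 41.6% of all tested genes lower without overlap. In limma the log2 ratio was -1.08 ± 0.23 (SE) for pregnant against virgin (adjusted p = 0.0227), -0.86 ± 0.23 for lactating against pregnant (adjusted p = 0.0278) and -1.95 ± 0.23 for lactating against virgin (adjusted p = 0.000647). The last call held in every alternative run, from -2.54 to -1.60. The first ended under quantile normalization (adjusted p = 0.0526) and without any 1 of its 4 arrays (0.0635 to 0.171). The second ended under quantile normalization (0.0556), without the lactating mutant (-0.52, adjusted p = 0.123), without the pregnant control (0.0819) and without the pregnant mutant (0.176).

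B2m, the partner that Fcgrt needs to leave the endoplasmic reticulum and that also serves class I molecules, had smaller ratios; it was named after its values were seen. Its signals were 32629 and 35185 at the virgin stage, 27602 and 28937 during pregnancy, and 22861 and 22066 during lactation. Its log2 ratio was -0.26 ± 0.20 from virgin to pregnant (adjusted p = 0.405), -0.33 ± 0.20 from pregnant to lactating (adjusted p = 0.228) and -0.59 ± 0.20 from virgin to lactating (adjusted p = 0.0366, lost in 6 alternatives, among them without any 1 of the 4 arrays, at 0.124 to 0.230). A second probe set of B2m, 1452428_a_at, had log2 ratios of -0.24, -0.09 and -0.33 in the same order. Its lactating control (26204) lay above its pregnant mutant (24686). Whether B2m signals this high still follow the amount of RNA was not tested. Fcgrt is also made by macrophages and endothelium. Of 15 macrophage and dendritic cell markers tested, 4 fell and 1 rose from virgin to pregnant (median -0.28), and 10 fell and 3 rose from virgin to lactating (median -1.95). Their summed signal ranged from 60792 to 63678 in virgin, 39537 to 40681 in pregnant and 22001 to 28196 in lactating arrays. Of 11 endothelial markers, 5 fell and 1 rose from virgin to pregnant and 8 fell and 0 rose from virgin to lactating, with medians of -0.67 and -1.38 and summed signals of 12014 to 12685, 6600 to 7319 and 5328 to 6049 at the 3 stages in the same order. Of 8 adipocyte markers, 3 fell and 0 rose from virgin to pregnant and 6 fell and 0 rose from virgin to lactating (medians -0.82 and -2.51), with a summed signal of 123669 to 125153, then 78689 to 92648, then 48321 to 51972. From pregnant to lactating, 9 macrophage and dendritic cell markers fell and 2 rose (median -1.13). Over the same step 4 endothelial markers fell and 1 rose (-0.41), and 5 adipocyte markers fell and 0 rose (-1.37). Of all tested genes, 8.09% were called lower and 6.61% higher from virgin to pregnant, and 28.2% and 23.8% from virgin to lactating. From pregnant to lactating these shares were 17.0% and 14.9%. The part of macrophages, dendritic cells, endothelium or adipocytes in the falls of Fcgrt and Jchain was not tested.

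Jchain, the peptide that joins IgA and IgM units and is needed for binding to the Pigr product, was high in virgin glands and low in lactation. Its signals were 4194 and 4035 at the virgin stage, 1536 and 2766 during pregnancy, and 788 and 381 during lactation. No 2 stages overlapped, against the same background of 36.5%, 36.5% and 41.6% for each comparison alone. However, the pregnant arrays differed 1.80-fold and the lactating arrays 2.07-fold, in opposite directions between the genotypes. In limma, lactating against virgin gave a log2 ratio of -2.79 ± 0.37 (SE; adjusted p = 0.000975), a call that held in all alternatives run, from -3.46 to -2.12. Lactating against pregnant gave -1.81 ± 0.37 (adjusted p = 0.0124). Without the pregnant mutant this step was -1.14 and no longer passed (adjusted p = 0.0744), and without the lactating mutant it was -1.14 and passed (adjusted p = 0.0275). Pregnant against virgin did not pass, at -0.98 (95% confidence interval -1.85 to -0.11, adjusted p = 0.121). Without the pregnant mutant that step was -1.64 and passed (adjusted p = 0.0276), without the pregnant control it was -0.31, and without the lactating arrays it passed (adjusted p = 0.0198).

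The heavy chains carried with the J chain also had lower lactating signals. Igha, the heavy chain of IgA, had signals of 9564 and 6850 at the virgin stage, 3739 and 6166 during pregnancy, and 1319 and 258 during lactation. In limma its log2 ratio was -2.90 ± 0.55 for lactating against pregnant (adjusted p = 0.00993) and -3.64 ± 0.55 for lactating against virgin (adjusted p = 0.00158), whereas pregnant against virgin did not pass (-0.75 ± 0.55, adjusted p = 0.399). Ighm, the heavy chain of IgM, had signals of 3555 and 3665, then 1082 and 2599, then 396 and 236, which gave -2.27 ± 0.39 for lactating against pregnant (adjusted p = 0.00733) and -3.35 ± 0.39 against virgin (adjusted p = 0.000596). For both chains the pregnant mutant lay above the pregnant control and the lactating mutant below the lactating control, as for Jchain. The kappa chain Igk fell by 1.01 on the log2 scale from pregnancy to lactation (adjusted p = 0.0280) and by 1.36 from virgin to lactation (adjusted p = 0.00491). Ighg3, the heavy chain of IgG3, was called in pregnant against virgin alone of the 3 comparisons (adjusted p = 0.0482). Its virgin signals were 271 and 297, but its pregnant signals of 101 and 110 lay under 185, the 90th percentile of Y-linked probe sets in these females, so no size is given. With 1 array left out, the log2 ratio of Igha ranged from -4.03 to -1.76 for lactating against pregnant and from -4.78 to -2.51 for lactating against virgin, and that of Ighm from -3.03 to -1.51 and from -3.98 to -2.71, with each call kept. The values nearest 0 came without the lactating mutant or, for Ighm against pregnant, without the pregnant mutant. The fall of Igk from pregnancy ended without the lactating mutant (adjusted p = 0.119), the pregnant control (0.0814) or the pregnant mutant (0.199), and that of Ighg3 without any 1 of its 4 arrays (0.220 to 0.326), under quantile normalization (0.0522), with the lower pseudocount (0.0551) and without a filter (0.0823).

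The list of immunoglobulin chains had 4 tested genes of 7 measured and 24 listed. Of these, 1 fell from virgin to pregnant, 3 fell from pregnant to lactating and 3 from virgin to lactating, and 0 rose in any. The medians were -0.91, -1.64 and -2.36 against -0.06, -0.04 and -0.10 over all tested genes. Called lower in these comparisons were 8.09%, 17.0% and 28.2% of all tested genes, and called higher 6.61%, 14.9% and 23.8%. A wider description, chosen after the values were seen, took 42 single-symbol probe sets of heavy chain constant, kappa and lambda genes. Heavy chain variable genes, Igll1 and probe sets with several symbols were left out. Of the 42, 15 passed the filter, and in 12 of the 15 both lactating arrays lay below all other arrays. Of all 19481 probe sets with a single symbol past the filter, 27.8% did so. Many of the immunoglobulin probe sets read near-identical gene segments, so they are not separate measurements. The median log2 ratio over the 15 was -0.75 from virgin to pregnant and -2.27 from pregnant to lactating.

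Mzb1, the cofactor of antibody assembly, was lowest in pregnancy. Its signals were 456 and 627 at the virgin stage, 250 and 213 during pregnancy, and 467 and 379 during lactation. The pregnant arrays lay below both virgin arrays, as in 36.5% of all tested genes. Both lactating arrays lay above the pregnant ones, as in 33.4%, and the lactating control lay between the virgin arrays. Pregnant against virgin gave a log2 ratio of -1.05 ± 0.26 (SE; adjusted p = 0.0379 in limma). The call was lost under quantile normalization (adjusted p = 0.0508), without a filter (0.0719) and with each of the 4 arrays left out (0.0915 to 0.257). Lactating against pregnant was 0.74 (95% confidence interval 0.13 to 1.36, adjusted p = 0.0671) and lactating against virgin -0.31 (-0.93 to 0.30, adjusted p = 0.347), neither of which passed. Relative to the virgin mean, the lactating control and mutant were at -0.18 and -0.45 on the log2 scale for Mzb1, -2.31 and -3.27 for Jchain, and -2.57 and -4.72 for Igha. The difference between Mzb1 and these genes was not tested.

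Ccr10 and Tnfrsf17, the homing and the survival receptor of plasma cells, did not pass the filter. Ccr10 had signals of 124 and 153 at the virgin stage, 79.2 and 96.9 during pregnancy, and 27.4 and 98.1 during lactation. Both virgin arrays lay above the other 4, and the lactating arrays enclosed the pregnant ones. Tnfrsf17 had signals of 55.8 and 22.8, then 6.8 and 13.1, then 11.9 and 6.2, so that again the virgin arrays were the highest. Among the tested genes, 36.5% lay below virgin without overlap in pregnancy and 41.6% in lactation. Neither receptor is among those genes, so these shares are only a rough background here. In these female mice 20 Y-linked probe sets had a median of 33.6, a 90th percentile of 185 and a highest value of 484, and every value of Ccr10 and Tnfrsf17 lay under that 90th percentile. Fitted without the filter, lactating against virgin was -0.80 for Ccr10 (95% confidence interval -1.60 to 0.01, limma adjusted p = 0.0994) and -0.56 for Tnfrsf17 (-1.18 to 0.07, adjusted p = 0.131), and no other stage step of either passed. At these signals the arrays do not show whether the 2 receptors were expressed.

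Ccl28, the epithelial ligand of CCR10, rose. Its brightest probe set had signals of 207 and 132 at the virgin stage, 700 and 342 during pregnancy, and 2345 and 1443 during lactation. The stages did not overlap, and the mutant was the lower array of each pair. For each of the 3 comparisons alone, 27.9%, 33.4% and 35.3% of all tested genes were higher without overlap. In limma the log2 ratio was 1.32 ± 0.22 from virgin to pregnant (adjusted p = 0.0104), 1.80 ± 0.22 from pregnant to lactating (adjusted p = 0.00327) and 3.12 ± 0.22 from virgin to lactating (adjusted p = 0.000124). Its other 2 probe sets were below the filter, and with the mean of all 3 the first step was 0.79 and did not pass (adjusted p = 0.0756), nor did it without the pregnant control (0.106) or the virgin control (0.102). Vcam1 and Cxcl12, an adhesion molecule and a chemokine that help to hold plasma cells in bone marrow, had log2 ratios of -3.85 (adjusted p = 0.000102) and -2.77 (adjusted p = 0.000119) from virgin to lactating. Averaged over all probe sets of each gene these were -2.35 and -1.32, both still called (adjusted p = 0.000575 and 0.00193). In the list of antibody transport and antibody-cell homing genes, 21 of 28 were tested. Of these, 3 rose and 4 fell from virgin to pregnant, 3 rose and 3 fell from pregnant to lactating, and 6 rose and 8 fell from virgin to lactating. The list's medians were -0.19, 0.12 and -0.18, near those of all tested genes. Among all tested genes, 6.61%, 14.9% and 23.8% were called higher and 8.09%, 17.0% and 28.2% lower in these comparisons.

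**Figure D2:**
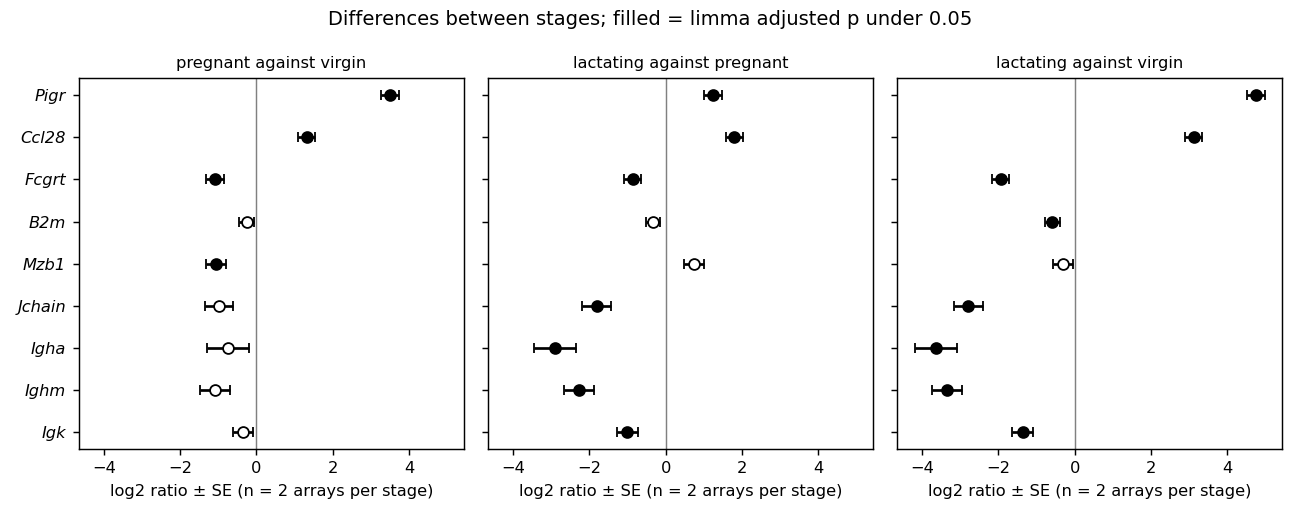
Log2 ratio on the log2(signal + 52.1) scale with its standard error, from limma, in the 3 stage comparisons for Pigr, Fcgrt, Mzb1 and Jchain and for Ccl28, B2m, Igha, Ighm and Igk, with filled points where the adjusted p is under 0.05. Pigr lies at 3.50 and 4.75 above virgin in pregnancy and lactation, and Jchain and Fcgrt lie at -2.79 and -1.95 in lactation.

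The plasma cell list, 19 tested of 23, moved in both directions. From virgin to pregnant 5 rose and 3 fell (median 0.04), and from pregnant to lactating 2 rose and 0 fell (0.37). From virgin to lactating 10 rose and 5 fell (0.64). Those that fell were Irf4, Sdc1, Tnfrsf13b, Tnfrsf13c and Pou2af1, and Prdm1 was among those that rose. The shares of all tested genes were 6.61%, 14.9% and 23.8% called higher and 8.09%, 17.0% and 28.2% called lower. Several genes of the list that rose serve protein secretion in many cell types. Among them is Edem2, which helps to clear misfolded proteins of the endoplasmic reticulum, at 2.24 ± 0.23 (adjusted p = 0.000373) from virgin to lactating in limma. Fkbp11, a folding enzyme, was called in the same comparison (adjusted p = 0.000375), but its virgin signals of 16 and 23 lay under the median of 33.6 of Y-linked probe sets, so the size of its ratio is set by the pseudocount and is not given; its lactating signals were 654 and 562. Tent5c, a poly(A) polymerase that stabilises RNAs of secreted proteins, was at 2.52 ± 0.29 (adjusted p = 0.000539). Derl3, of the degradation pathway of the endoplasmic reticulum, rose from pregnant to lactating (0.91 ± 0.24, adjusted p = 0.0269), a call lost without any 1 of its 4 arrays (0.0566 to 0.155) and after centring on array medians (0.138). Xbp1, a transcription factor of secretory cells, which was named after its values were seen, was at 1.88 ± 0.30 from virgin to pregnant (adjusted p = 0.00939; 0.0598 without the virgin control). Pou2af1, a coactivator of B and plasma cells, had log2 ratios of -3.15 from virgin to pregnant (adjusted p = 0.00262) and -2.73 from virgin to lactating (adjusted p = 0.000667). Its pregnant signals of 63.4 and 136 and lactating signals of 162 and 130 lay under that 90th percentile of 185, so these sizes depend on the pseudocount.

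Most B and T cell markers were already lower in pregnancy. Of 16 B cell markers tested, 12 fell and 0 rose from virgin to pregnant (median -1.61), among them the surface protein Ms4a1 at -2.22 ± 0.23 (adjusted p = 0.00250), the receptor subunit Cd79b at -2.31 ± 0.31 (adjusted p = 0.00496) and the scaffold Bank1 at -2.05 ± 0.25 (adjusted p = 0.00408). From pregnant to lactating 5 rose and 2 fell (median 0.28). Among those that rose were the IgE receptor Fcer2a at 1.62 ± 0.30 (limma adjusted p = 0.00957) and the inhibitory receptor Cd22 at 1.14 ± 0.24 (adjusted p = 0.0134). The 2 that fell were Blnk at -1.13 ± 0.23 and Ly86 at -1.01 ± 0.25. Fcer2a lost its call without the pregnant control (0.0623), Cd22 without the lactating control (0.0633) or either pregnant array (0.0783 without the control, 0.0597 without the mutant) and with the mean of its probe sets (0.25, adjusted p = 0.508), and Cd79b without the virgin control (0.0598). The pregnant signals of Cd79b (114 and 152) and Fcer2a (23.7 and 98.3) also lay under 185, and the sizes of their ratios depend on the pseudocount. The summed B cell signal was 10074 to 12506 in virgin, 3040 to 3919 in pregnant and 4431 to 4952 in lactating arrays. Of 10 T cell markers, 7 fell and 0 rose from virgin to pregnant (median -1.64), and 1 rose and 1 fell from pregnant to lactating (median -0.02). Among all tested genes, 8.09% fell and 6.61% rose from virgin to pregnant. From pregnant to lactating 17.0% fell and 14.9% rose, and from virgin to lactating 28.2% fell and 23.8% rose. Relative to the virgin mean, the median of the B cell list stood at -1.88 and -1.32 during pregnancy and at -1.26 and -1.55 during lactation, whereas Jchain went from -1.39 and -0.56 to -2.31 and -3.27. The difference between these courses was not tested. The list of lymph node stroma and vessels had 6 tested genes, not all of them particular to lymph nodes. From virgin to pregnant 3 fell and 1 rose, and from virgin to lactating 4 fell and 1 rose (medians -1.53 and -2.43). From pregnant to lactating 3 fell (Lyve1, Ltb and Tnfsf11) and 1 rose (Cxcl13), with a median of -1.05. Glycam1, which rose in both comparisons with virgin, is also a milk protein and makes up most of the list's summed signal. That sum was 16372 to 21752, 47453 to 65611 and 58252 to 62111 at the 3 stages. The labels do not say whether a lymph node was left in the glands, and the part of lymph node content in the falls of Jchain and the immunoglobulin genes was not tested.

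**Figure D3:**
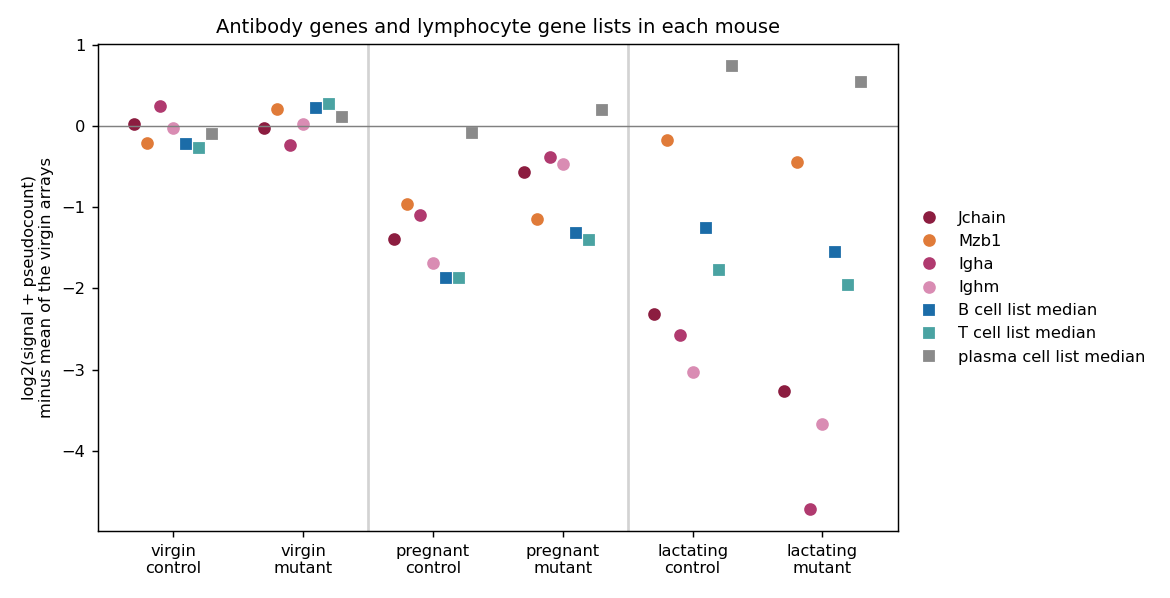
Log2 level relative to the mean of the virgin arrays for Jchain, Mzb1, Igha and Ighm and for the medians of the B cell, T cell and plasma cell lists, in each array by stage. The B cell median lies between -1.88 and -1.26 in the pregnant and lactating arrays, whereas Jchain, Igha and Ighm lie lower in both lactating than in both pregnant arrays.

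Between Brca1 mutant and control glands, with the 3 stages as blocks, 0 of the 4 tested members and 0% of all 11341 tested genes were called by limma. At an unadjusted p under 0.05 there were 534 genes, and the lowest adjusted p was 0.932. Pigr had a log2 ratio of 0.28 ± 0.19 (SE; 95% confidence interval -0.17 to 0.72, adjusted p = 0.932) and Fcgrt of -0.28 ± 0.19 (-0.72 to 0.16, adjusted p = 0.932). Jchain gave -0.06 ± 0.30 (-0.77 to 0.65, adjusted p = 0.988) and Mzb1 -0.01 ± 0.22 (-0.52 to 0.49, adjusted p = 0.993). These intervals are not limits of detection, since changes larger than these can also miss a call at the adjusted threshold. The 12 gene lists had 0 called members. Ccl28 was lower in the mutant in 3 of 3 pairs, at -0.70 ± 0.18, and did not pass (adjusted p = 0.932).

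Within the pairs, which have 1 mouse per genotype and no test, mutant and control were closest in the virgin pair for Jchain and Fcgrt. There the mutant-to-control log2 ratio was -0.06 for Jchain, -0.00 for Fcgrt, 0.42 for Mzb1, and -0.19 and 0.38 for the 2 probe sets of Pigr. In the pregnant pair it was 0.83 for Jchain, -0.10 for Fcgrt, -0.19 for Mzb1, and 0.40 and 0.11 for Pigr. In the lactating pair it was -0.96 for Jchain, -0.74 for Fcgrt, -0.27 for Mzb1, and 0.62 and 0.66 for Pigr. Jchain thus had opposite signs during pregnancy and lactation, and so did Igha (0.71 and -2.15) and Ighm (1.23 and -0.64). On the signal scale, with no pseudocount, Igha was 5.12-fold lower in the lactating mutant than in its control.

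**Figure D4:**
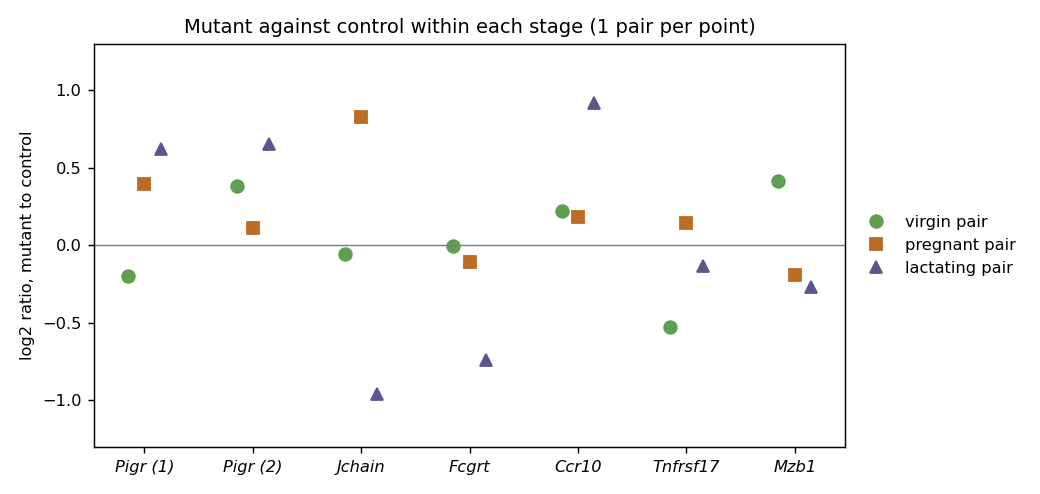
Mutant-to-control log2 ratio on the log2(signal + 52.1) scale for each probe set of the 6 genes within each stage's pair, 1 mouse per genotype. Jchain lies at 0.83 during pregnancy and at -0.96 during lactation, and the virgin pair lies between -0.53 and 0.42.

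The genes whose levels over the 6 arrays were most like those of each tested member are given as a description, since arrays of the same stage resemble each other. Pigr was most like Psmd11 (Pearson r = 0.999 over 6 arrays), a proteasome subunit, then Edem3 (0.998), an enzyme of endoplasmic reticulum quality control, and Slc41a1 (0.994), a magnesium carrier. Jchain was most like Glul (0.997), the glutamine synthetase, then Acsl3 (0.997), which activates fatty acids, and Serbp1 (0.996), an RNA-binding protein. Fcgrt was most like Otulinl (0.998), Lrrc17 (0.997) and Atf7ip (0.997). Mzb1 was most like Il27ra (0.982), the receptor of interleukin-27, then Usp21 (0.978), a deubiquitinase, and Gpx3 (0.977), the plasma glutathione peroxidase. An r over 0.95 was reached by 266 genes with Pigr, 416 with Jchain, 452 with Fcgrt and 22 with Mzb1. Among the members, Pigr and Fcgrt had r = -0.965, Jchain and Fcgrt 0.947, and Jchain and Mzb1 0.121.

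Some properties of the arrays move with the stages. The median signal of all probe sets was 120 to 139 in virgin, 148 to 158 in pregnant and 211 to 231 in lactating arrays, while the deposited scaling gave every array the same trimmed mean. Centring on array medians moved the median over all tested genes to -0.23, -0.45 and -0.68 for pregnant against virgin, lactating against pregnant and lactating against virgin, and the share of calls that were higher from 45.0%, 46.8% and 45.8% to 27.8%, 16.7% and 18.8%. Pigr, Jchain and Fcgrt kept their directions under it. The actin 3′-to-5′ signal ratio, which rises as RNA degrades, was 2.03 to 2.74 in virgin, 1.37 to 1.43 in pregnant and 1.58 to 1.91 in lactating arrays. The same ratio for Gapdh was 1.52 to 3.50 in virgin, 0.73 to 0.80 in pregnant and 1.09 to 1.20 in lactating arrays. Both ratios were highest in the virgin control. Skeletal muscle markers were bright in the pregnant arrays, with all 10 called higher than in virgin (median 3.04), against 6.61% of all tested genes. In lactating against virgin glands 9 of 10 were called higher (median 1.82), against 23.8% of all tested genes. The summed signal of these markers was 12884 to 38220 in virgin, 148990 to 163872 in pregnant and 73876 to 78377 in lactating arrays. The part of these differences in the values above was not tested.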

How the data were processed

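The deposited values are MAS5 signal intensities on a linear scale, 1 per probe set, made by the authors with MAS5 per the submitters' processing notes (version not stated there). Every deposited array had a 2%-trimmed mean of 500, so it had been scaled. Here, log2(signal + 52.1) was analysed, the pseudocount being the 25th percentile of all values. Of 45101 probe sets, 64 array controls, 932 with several symbols and those unnamed here were set aside. A gene's brightest probe set stood for it, and IDs ending in _x_at or _s_at were used only for genes without another. The filter kept the 11341 genes whose mean log2 value reached 7.72, the median over probe sets. The naming rule took all members and, per list and comparison, up to 4 called genes with the smallest p; some are left out for brevity.

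Linear models (limma 3.58.1, R 4.3.3, eBayes with a trend) gave stage contrasts with genotype as a term, and mutant against control with stage as a block, since the labels pair the mice by stage. Residual degrees of freedom were 2 and prior ones 5.54. P-values were two-sided and Benjamini-Hochberg adjusted over all tested genes. No group has 2 mice, so they do not measure the spread between like mice. The residual spread is how the mutant-to-control difference varies between stages. It mixes differences between single mice with those between the alleles of the pregnant pair and of the other pairs. The members, lists and rules were chosen with earlier results of these data known. In simulated data with 200 changed genes among 11341, log2 changes of 1, 2, 3 and 4 were recovered at 18%, 92%, 98% and 100% for pregnant against virgin, 12%, 84%, 96% and 100% for lactating against pregnant, 22%, 82%, 100% and 100% for lactating against virgin and 34%, 96%, 100% and 100% for mutant against control, with 17, 11, 4 and 3 false calls. The simulation changed far fewer genes than the 1667, 3614 and 5895 called in the stage comparisons. Its noise was independent between arrays, with no difference of the genotype effect between stages. Its rates therefore do not carry over directly to these data. The number of arrays limits the precision. Alternatives covered scaling, pseudocounts of 14.9 and 168.7, filters, probe set choice, variance trend, terms and each array left out. Figures were drawn with matplotlib 3.10.9.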

Additional observations from a re-analysis of the deposited data

How the results depend on the processing

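All stage calls rest on 2 mice per stage. The count of members called in pregnant against virgin was 1 under quantile normalization and 1 to 2 with 1 array left out, in lactating against pregnant 1 to 3 with 1 array left out, and in lactating against virgin 3 in each of those fits. Over all genes, fitting every probe set gave 2968, 6225 and 10152 calls for pregnant against virgin, lactating against pregnant and lactating against virgin, on more features. The filter at the 75th percentile, with fewer genes tested, gave 2106 for lactating against pregnant and 3513 for lactating against virgin. Without the lactating arrays, pregnant against virgin gave 2624. Leaving out 1 array gave 329 to 888, 1138 to 3350 and 3385 to 5466 in the 3 comparisons, on fewer samples. Mutant against control gave 0 calls in every alternative, also with no replicate block. Signs turned for some ratios that were not called. Xbp1 in lactating against pregnant was -0.044 after centring on array medians and -0.057 to 0.79 with 1 array left out, and Mzb1 in lactating against virgin was -0.64 to 0.011 with 1 array left out, its highest value without the virgin mutant. In mutant against control with 1 pair left out, Mzb1 was -0.23 to 0.11, at 0.07 without the pregnant and 0.11 without the lactating pair, and Jchain was -0.51 to 0.39, at 0.39 without the lactating pair. Mzb1 in lactating against virgin passed after centring (-0.90, limma adjusted p = 0.0147). Of 794 alternative values for 55 single-gene results, 727 kept direction and side of the threshold, 57 lost and 4 gained a call. Where no cause is named, the cause was not tested.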

Other observations

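Receptors for the Fc part of IgG and IgE other than Fcgrt moved in both directions. Of 8 tested, 2 rose and 3 fell from virgin to pregnant, and 4 rose and 4 fell from pregnant to lactating. From virgin to lactating 2 rose and 3 fell. The medians were -0.34, -0.03 and -0.11. Of all tested genes, 6.61%, 14.9% and 23.8% were called higher and 8.09%, 17.0% and 28.2% lower in these comparisons.

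A few immunoglobulin probe sets departed from the rest; they were chosen after their values were seen. The Igk probe set 1425738_at had a signal of 994 in the pregnant mutant and 287 in the pregnant control, 236 to 351 in the virgin pair, and 9.3 to 12.7 in the lactating pair. Another of Igk, 1427757_at, had 244 in the pregnant mutant and between 7 and 26.9 in the other 5 arrays. For Ighm, 1452535_at was higher in the pregnant and lactating arrays (190 to 358) than in the virgin ones (89.1 to 112), opposite to the probe set used for the gene.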
